A study of Mus musculus with 6 samples.

Results

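The IL-33, IL-18 and IL-1 receptor system was taken as 8 genes chosen by name: the ligand genes Il33 and Il18, and the receptor genes Il1rl1, Il18r1, Il18rap, Il1rap, Il1r1 and Il1r2. Of these, 7 had a probe set naming the gene alone, out of 18194 such genes on the array. Il1rl1, which encodes the IL-33 receptor chain ST2, was named by no probe set in the annotation used here and was not analysed here. The other 7 members had 13 probe sets, and Il18rap, Il1rap and Il1r1 had more than 1.

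RNA was measured on 6 Affymetrix mouse arrays of splenic CD4 T cells from C57BL/6 mice, all cultured under Th2 conditions and transfected with siRNA. Th2-4th cells are Th2 cells taken through further cycles of culture, and Th2-1st cells come from the first culture of 5 days with 25 U/ml IL-2 and 100 U/ml IL-4. Each culture gave 1 array of cells with GATA3 siRNA after 4 h of anti-TCR mAb, 1 of cells with control siRNA after 4 h of anti-TCR mAb, and 1 of cells with control siRNA left unstimulated, the stimulation following 24 h after transfection. No unstimulated array with GATA3 siRNA was analysed here, and the same single GATA3 siRNA served both cultures. In the methods, the Th2-4th cells rested without added cytokines before each later cycle and were then restimulated through the TCR in IL-2 with IL-4 blocked, so that culture stage and the blocking of IL-4 cannot be told apart. Each condition had 1 array, so no difference below has a replicate check and none has a p-value. How many mice gave the cells of an array is not given in the sources used here.

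IL-33 is an alarmin, a nuclear cytokine best known from epithelial and endothelial cells that is released on damage and acts on ST2, which Th2 cells, group 2 innate lymphoid cells and mast cells carry. ST2 pairs with the accessory chain encoded by Il1rap, which the signalling IL-1 receptor encoded by Il1r1 also uses, and these complexes signal through MyD88 and IRAK kinases to NF-kB. IL-18, which caspase-1 processes, binds the chain encoded by Il18r1, which pairs with the chain encoded by Il18rap and is classically linked to Th1 and NK cells. Il1r2 encodes a decoy receptor that binds IL-1 without signalling.

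The 6 receptor genes Il1r2, Il1r1, Il1rl2, Il1rl1, Il18r1 and Il18rap lie side by side on mouse chromosome 1 over 467 kb (chr1:40084692-40551707, GRCm38.p6), and 5 of them were measured. Il18r1 (chr1:40465552-40500854) starts 134 bases after the end of Il1rl1, and Il18rap (chr1:40515362-40551707) starts 14.5 kb after the end of Il18r1. Il33 lies at chr19:29925113-29960718, Il18 at chr9:50554700-50581841 and Il1rap at chr16:26581509-26730128. The promoter windows, from 250 bases before to 50 bases after an annotated start, were taken from RefSeq (GRCm38.p6) for all 8 genes, 13 windows in all. They are shown for Il33, which was past 2-fold with GATA3 siRNA in both cultures, for the IL-18 receptor pair and for the decoy receptor gene, all on the + strand, with matches to the GATA motif (the letters GATA with A or T before them and A or G after them, on either strand) in capitals. Of the 3 windows of Il18r1 only the first is shown.
Il33 first start (chr19:29924863-29925162): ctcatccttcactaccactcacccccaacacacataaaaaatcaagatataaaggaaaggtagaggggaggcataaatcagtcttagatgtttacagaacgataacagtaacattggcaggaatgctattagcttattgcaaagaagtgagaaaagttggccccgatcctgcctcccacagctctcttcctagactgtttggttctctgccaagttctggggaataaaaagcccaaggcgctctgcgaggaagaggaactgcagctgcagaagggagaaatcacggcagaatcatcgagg
Il33 second start (chr19:29945540-29945839): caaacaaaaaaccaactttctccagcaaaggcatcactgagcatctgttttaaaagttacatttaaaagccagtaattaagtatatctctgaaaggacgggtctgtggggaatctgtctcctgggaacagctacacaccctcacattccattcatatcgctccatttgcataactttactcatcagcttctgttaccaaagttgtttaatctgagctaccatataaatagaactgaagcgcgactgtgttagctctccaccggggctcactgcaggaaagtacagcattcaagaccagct
Il18r1 (chr1:40465302-40465601): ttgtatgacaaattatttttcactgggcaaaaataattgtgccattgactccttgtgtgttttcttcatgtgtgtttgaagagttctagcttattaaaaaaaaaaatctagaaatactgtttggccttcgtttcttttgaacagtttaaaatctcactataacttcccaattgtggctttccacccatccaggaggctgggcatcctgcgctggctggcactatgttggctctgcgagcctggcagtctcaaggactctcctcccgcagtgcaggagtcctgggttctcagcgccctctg
Il18rap (chr1:40515112-40515411): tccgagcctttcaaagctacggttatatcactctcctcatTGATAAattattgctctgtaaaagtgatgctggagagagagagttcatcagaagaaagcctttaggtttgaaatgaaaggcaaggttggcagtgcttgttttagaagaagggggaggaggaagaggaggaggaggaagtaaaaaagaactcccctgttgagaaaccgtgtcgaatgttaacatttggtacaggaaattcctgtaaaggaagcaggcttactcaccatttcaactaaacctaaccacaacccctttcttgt
Il1r2 (chr1:40085843-40086142): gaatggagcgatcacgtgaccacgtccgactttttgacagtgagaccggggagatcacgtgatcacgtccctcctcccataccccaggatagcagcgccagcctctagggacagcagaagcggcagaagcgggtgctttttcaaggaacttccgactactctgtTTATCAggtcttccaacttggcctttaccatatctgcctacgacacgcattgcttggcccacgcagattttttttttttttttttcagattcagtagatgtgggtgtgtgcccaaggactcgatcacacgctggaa

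These letters stood in 4 of the 13 windows, those of Il18rap, Il1r2 and both starts of Il1rl1, while 29.8% of all 32851 promoter windows of the same length held them. In Il18rap the match began 210 bases before the start, and in Il1r2 it was on the opposite strand, 86 bases before the start. The windows of Il33 and Il18r1 held none. The AP-1 motif (TGACTCA or TGAGTCA, the same site read on either strand) stood in none of the 13 windows and in 5.20% of all windows. A match is a description of the letters and not a binding site.

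Signals are linear intensities that the authors scaled to a common mean. The array medians ran from 61.8 to 74.2, and a probe set below the median of its array was taken as dim. Where a gene had several probe sets, the brightest one by mean log2 signal stood for it. Beside a log2 ratio of 2 arrays stands its spread, a robust SD of the log2 ratio among the 500 genes of nearest signal in that comparison. The spread includes real changes and is no replicate error. A ratio past 2-fold was counted as higher or lower, the bound the study used for its array ratios. Gata3, the target of the siRNA, read 2853 in Th2-4th cells with GATA3 siRNA and 9261 with control siRNA, both stimulated, and 1798 and 4883 in Th2-1st cells (log2 ratio -1.70 in Th2-4th and -1.44 in Th2-1st). The 9 measured markers of CD4 T cells were above the array median on all 6 arrays. Of the 10 myeloid markers 3 to 6 were above it, with summed signals of 485 to 834 against 56966 to 90334 for the CD4 T cell list, and of the 5 B cell markers 0 to 1. Of the 9 mast cell and basophil markers 1 to 3 were above the median. Cpa3 read up to 582 (unstimulated Th2-4th), Mcpt8 up to 873 (stimulated Th2-4th with control siRNA) and Gata2 up to 247 (stimulated Th2-4th with GATA3 siRNA), while Fcer1a, Ms4a2 and Kit were below the median on every array. Of the 9 stromal, endothelial and epithelial markers 3 to 4 were above it.

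**Figure D1:**
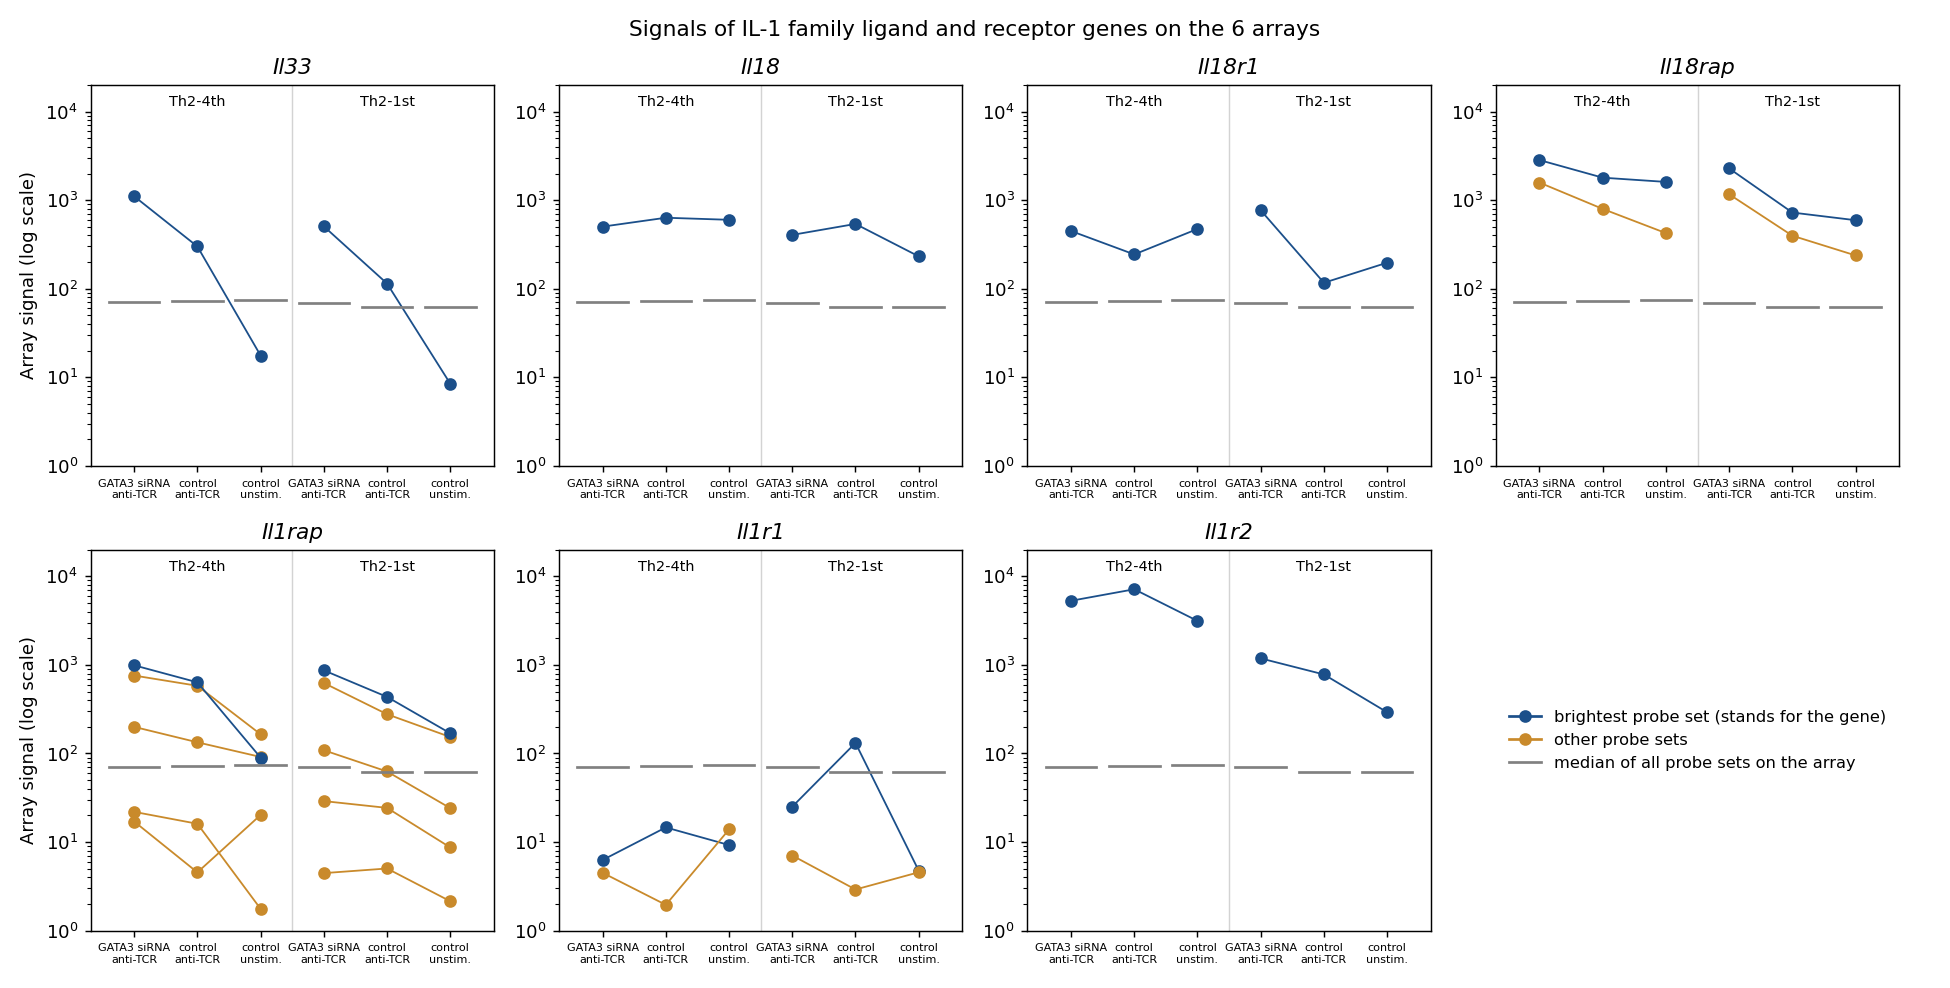
Signal intensity on a log axis (vertical) on each of the 6 arrays (horizontal, Th2-4th left and Th2-1st right in each panel), 1 point per array and 1 line per probe set, for the 7 measured genes. Blue marks the probe set that stands for the gene, orange the other probe sets and grey bars the array medians, and the Il33 signal is above the median on the 4 stimulated arrays and below it on both unstimulated arrays.

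The first question was what the members did when GATA3, the transcription factor that directs Th2 differentiation, was knocked down in stimulated cells. Il33 was higher with GATA3 siRNA in both cultures, by 3.69-fold in Th2-4th and 4.42-fold in Th2-1st cells. The genes of both IL-18 receptor chains were higher past 2-fold in Th2-1st cells, Il18r1 by 6.59-fold and Il18rap by 3.15-fold, and had ratios of 1.84 and 1.58 in Th2-4th cells. The IL-1 receptor gene Il1r1 was lower in both cultures by its brighter probe set, at signals that were dim on every Th2-4th array, and higher by its other, dim probe set. In Th2-4th cells, 1 of the 7 measured members was higher and 1 was lower, where 10.6% of all genes were higher and 10.6% were lower. In Th2-1st cells, 3 of 7 were higher and 1 was lower, where 13.3% of all genes were higher and 7.49% were lower. The median log2 ratio of the 7 members was 0.64 in Th2-4th and 0.996 in Th2-1st cells, and that of all genes was 0.01 and 0.05. The study itself singled out Il33, Il1rl1, Il1rap and Il18rap as higher with GATA3 siRNA on these arrays. It reported Il1rl1 higher in both cultures on the arrays and slightly lower by quantitative RT-PCR. The members were also chosen with results known, so these counts are no independent evidence of a direction. Centring each array on its median moved all Th2-1st knockdown log2 ratios by -0.17.

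Il33 read 1106 in Th2-4th cells with GATA3 siRNA after stimulation, 300.1 with control siRNA after stimulation and 17.6 with control siRNA unstimulated. In Th2-1st cells it read 506 with GATA3 siRNA after stimulation, 114.5 with control siRNA after stimulation and 8.48 with control siRNA unstimulated. The order of the 3 arrays was the same in both cultures, the GATA3 siRNA array being highest and the unstimulated array lowest. The log2 knockdown ratio was 1.88 (spread 0.30) in Th2-4th and 2.14 (spread 0.36) in Th2-1st cells, so that it was past 2-fold and beyond the spread in each. Il33 has 1 probe set on the array, so no other probe set of the gene can be set beside it. In a bulk sample, more cells that carry a transcript and more transcript per cell cannot be told apart. Of the markers of stromal, endothelial and epithelial cells, cells in which IL-33 is best known, the summed signal was 1091 with GATA3 siRNA and 3231 with control siRNA in stimulated Th2-4th cells, and 1582 and 3128 in stimulated Th2-1st cells. The difference lay in 1 gene, Epcam, an adhesion molecule of epithelium, with 418 and 2541 in Th2-4th and 1128 and 2781 in Th2-1st cells with GATA3 siRNA and control siRNA. The other 8 markers summed to 673 with GATA3 siRNA and 689.5 with control siRNA in stimulated Th2-4th cells, and to 454 and 347 in stimulated Th2-1st cells. Of the fibroblast genes, Col1a1, Col3a1 and Pdgfra were dim on every array, and Col1a2 was above the median on 1 array, with 82.8 in stimulated Th2-4th control cells. Pecam1 was above the median on every array, with 177.3 and 176.5 in stimulated Th2-4th and 148 and 112 in stimulated Th2-1st cells with GATA3 siRNA and control siRNA. In the same order Krt18 read 72.9 and 48.1, and 113 and 89.8. Cdh1 read 226 and 220, and 21.1 and 9.18, and Cdh5 was dim on every array. Whether such cells had a part in the Il33 signal was not tested.

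Il18, the other ligand gene, read 502.5 in Th2-4th cells with GATA3 siRNA after stimulation, 633 with control siRNA after stimulation and 600.2 unstimulated. Th2-1st cells gave 405 with GATA3 siRNA after stimulation, 539 with control siRNA after stimulation and 232 unstimulated. Its signal was well above the median on all 6 arrays, and it was not past 2-fold with GATA3 siRNA in either culture (log2 -0.33, spread 0.30, in Th2-4th, and -0.41, spread 0.27, in Th2-1st). The 2 ligand genes thus had knockdown ratios on opposite sides of 0 in both cultures.

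Il18r1, the ligand-binding chain of the IL-18 receptor, read 449 in Th2-4th cells with GATA3 siRNA after stimulation, 244 with control siRNA after stimulation and 473 unstimulated. The Th2-1st signals were 769 with GATA3 siRNA after stimulation, 117 with control siRNA after stimulation and 197 unstimulated. The stimulated control array was the lowest of the 3 in both cultures. The log2 knockdown ratio was 0.88 (spread 0.34) in Th2-4th and 2.72 (spread 0.30) in Th2-1st cells, a difference of -1.84 between the cultures that cannot be tested with 1 array per condition. Set against unstimulated control cells, the log2 ratio of stimulated GATA3 siRNA cells was -0.08 in Th2-4th and 1.97 in Th2-1st cells. With GATA3 siRNA the signal was thus close to that of unstimulated control cells in Th2-4th and above it in Th2-1st cells.

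Il18rap, the signalling partner chain, read 2836 in Th2-4th cells with GATA3 siRNA after stimulation, 1795 with control siRNA after stimulation and 1607 unstimulated. Th2-1st cells gave 2282 with GATA3 siRNA after stimulation, 725 with control siRNA after stimulation and 594 unstimulated. The GATA3 siRNA array was the highest of each culture. The log2 knockdown ratio was 0.66 (spread 0.23) in Th2-4th and 1.65 (spread 0.18) in Th2-1st cells. Its other probe set read 1579 with GATA3 siRNA and 797 with control siRNA in stimulated Th2-4th cells, and 1166 and 397 in stimulated Th2-1st cells. The log2 ratios of that probe set, 0.99 and 1.55, were on the same side in both cultures, and in Th2-4th cells it was just short of 2-fold. The 5 measured markers of CD8 T and NK cells, in which IL-18 receptors are also known, had a summed signal of 2355 with GATA3 siRNA and 1798 with control siRNA in stimulated Th2-4th cells, and of 1265 and 846 in stimulated Th2-1st cells. Klrd1, the NK cell receptor chain CD94, read 1279 and 832 in Th2-4th and 133 and 86.2 in Th2-1st cells, in the same order. Eomes read 668 and 574, and 519 and 275, and Cd8b1 185 and 163, and 444 and 313. Cd8a was not higher, with 215 and 217, and 152 and 162. In control siRNA cells Eomes was also higher on stimulation, from 74.1 to 574 in Th2-4th and from 44.0 to 275 in Th2-1st cells. Ncr1, the NK cell receptor NKp46, was dim on every array. Whether such cells had a part in the Il18r1 and Il18rap signals was not tested.

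Il1rap, the accessory chain shared by the IL-33 and IL-1 receptors, read 990.2 in Th2-4th cells with GATA3 siRNA after stimulation, 636 with control siRNA after stimulation and 89.8 unstimulated. The Th2-1st signals were 869 with GATA3 siRNA after stimulation, 436 with control siRNA after stimulation and 169 unstimulated. The arrays stood in the same order as for Il33 in both cultures. The log2 knockdown ratio was 0.64 (spread 0.28) in Th2-4th and 0.996 (spread 0.28) in Th2-1st cells, a fold of 1.99 there, just inside 2-fold. The next brightest probe set read 759 with GATA3 siRNA and 581 with control siRNA in stimulated Th2-4th cells, and 626 and 278 in stimulated Th2-1st cells. Its log2 ratio of 1.17 in Th2-1st cells was past 2-fold and that of 0.38 in Th2-4th cells was not, so the count of higher members in Th2-1st cells depends on which of these probe sets stands for the gene. Another probe set had 0.58 in Th2-4th and 0.80 in Th2-1st cells, and the remaining 2 were dim on every array.

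Il1r1, the signalling IL-1 receptor, read 6.28 in Th2-4th cells with GATA3 siRNA after stimulation, 14.6 with control siRNA after stimulation and 9.25 unstimulated. In Th2-1st cells it read 25.1 with GATA3 siRNA after stimulation, 131.6 with control siRNA after stimulation and 4.76 unstimulated. The stimulated Th2-1st control array was the only 1 of the 6 on which it was above the median. The log2 knockdown ratio of -2.39 (spread 0.61) in Th2-1st cells therefore rests on that array, and that of -1.22 in Th2-4th cells was smaller than its spread of 2.35. With signals below the median raised to it, the log2 ratios were -0.04 in Th2-4th and -0.92 in Th2-1st cells, and neither was past 2-fold. Its other probe set, dim on every array, had ratios past 2-fold the other way, 1.20 in Th2-4th and 1.28 in Th2-1st cells.

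Il1r2, the decoy receptor, read 5299 in Th2-4th cells with GATA3 siRNA after stimulation, 7148 with control siRNA after stimulation and 3140 unstimulated. Th2-1st cells gave 1185 with GATA3 siRNA after stimulation, 780 with control siRNA after stimulation and 292 unstimulated. Every Th2-4th array was above every Th2-1st array. The log2 knockdown ratio was -0.43 (spread 0.19) in Th2-4th and 0.60 (spread 0.21) in Th2-1st cells, neither of them past 2-fold. By quantitative RT-PCR the study itself found Il1r2 lower with GATA3 siRNA in both cultures, unlike the array ratio in Th2-1st cells. By the same method it reported Il33, Il1rap and Il18rap higher with GATA3 siRNA, the receptor genes by about 2-fold, on the same side as the array ratios.

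**Figure D2:**
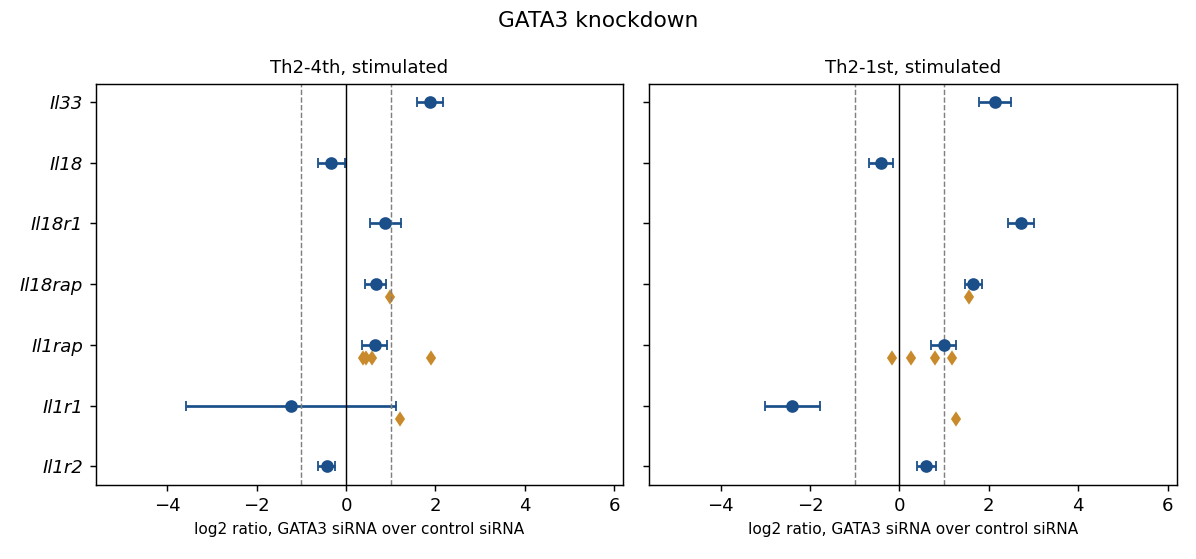
Log2 ratio of GATA3 siRNA over control siRNA in stimulated cells (horizontal) for the 7 genes (vertical), in Th2-4th cells (left) and Th2-1st cells (right). Blue points are the probe set that stands for the gene, with bars of 1 spread to each side (the robust SD of genes with similar brightness, not a replicate error), orange diamonds are the other probe sets and dashed lines mark 2-fold. Il33 lies past 2-fold in both panels, at 1.88 and 2.14.

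Along chromosome 1, the knockdown ratios of Il18r1 and Il18rap stood above those of the genes around them that were bright enough to read. In Th2-1st cells Map4k4, a kinase gene on the side of Il1r2, had -0.07 and Mfsd9, a transporter-like gene past Il18rap, had -0.06, both with a signal above the median on at least 1 of the 2 arrays. In Th2-4th cells Map4k4 had -0.21 and Mfsd9 had 0.14. Of the 5 neighbours of the cluster, none with a signal above the array median was past 2-fold in either culture, and Slc9a4, Slc9a2 and Tmem182 were dim. Il1rl2, the IL-36 receptor gene inside the cluster, had log2 ratios of 0.45 in Th2-4th cells, at dim signals, and 0.80 in Th2-1st cells.

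**Figure D3:**
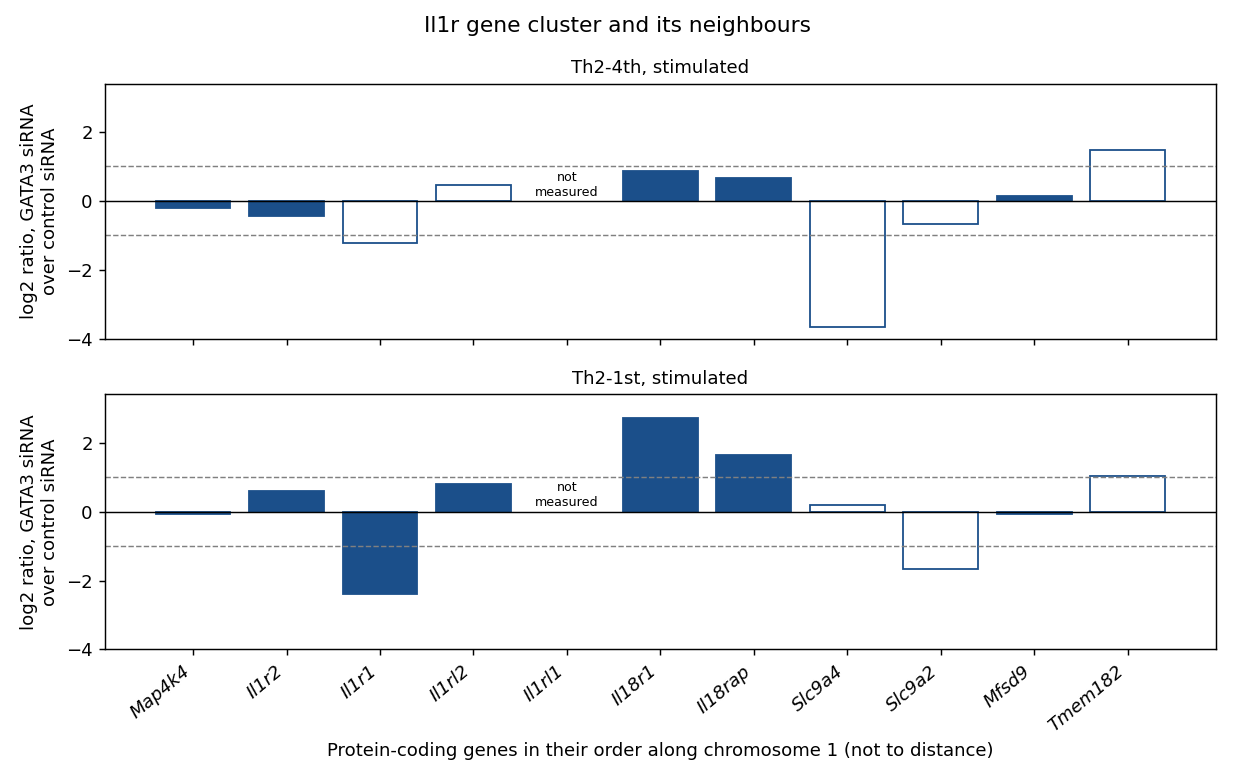
Log2 ratio of GATA3 siRNA over control siRNA in stimulated Th2-4th cells (upper) and Th2-1st cells (lower) for genes in their order along chromosome 1, with equal spacing. Bars are filled where the signal of either array was above its median and open where both were below it, and dashed lines mark 2-fold. Il18r1 and Il18rap are the highest filled bars in both panels, at 0.88 and 0.66 in Th2-4th and at 2.72 and 1.65 in Th2-1st cells.

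The second question was how the members responded to anti-TCR mAb in control siRNA cells. Il33 was 17.0-fold higher on stimulation in Th2-4th cells and 13.5-fold higher in Th2-1st cells, against dim unstimulated signals. Il1r2 was also higher in both cultures, as was Il1rap by its brightest probe set, and Il18r1 and Il18rap were not past 2-fold in either. In Th2-4th cells 3 of 7 members were higher and 0 were lower, where 18.7% of all genes were higher and 21.6% were lower. In Th2-1st cells 5 of 7 were higher and 0 were lower, where 17.5% of all genes were higher and 16.9% were lower. The stimulated control array also forms the lower term of each knockdown ratio, so stimulation and knockdown ratios of 1 culture share an array and are given side by side only.

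The log2 stimulation ratio of Il33 was 4.09 (spread 0.69) in Th2-4th and 3.76 (spread 0.85) in Th2-1st cells. Both unstimulated signals, 17.6 and 8.48, were dim, so these folds depend on dim values. With signals below the array median raised to it, the log2 ratio was 2.02 in Th2-4th cells and 0.87 in Th2-1st cells. The Th2-1st value was short of 2-fold, and the Th2-4th value was below that of the brightest Il1rap probe set. Il1rap had 2.82 (spread 1.0) in Th2-4th cells, 7.08-fold, and 1.37 (spread 0.95) in Th2-1st cells. Its next brightest probe set had 1.82 and 0.85, so that it was past 2-fold in Th2-4th cells only. Another, dim in unstimulated Th2-1st cells, had 0.55 in Th2-4th and 1.37 in Th2-1st cells, past 2-fold in Th2-1st cells only.

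Il1r2 had 1.19 (spread 0.84) in Th2-4th and 1.42 (spread 0.86) in Th2-1st cells. Il18 had 0.08 (spread 0.89) in Th2-4th and 1.22 (spread 0.83) in Th2-1st cells, where unstimulated cells had its lowest signal. Il18r1 had -0.95 (spread 0.98) and -0.75 (spread 0.93), lower on the stimulated array in both cultures yet within 2-fold and within the spread. Il18rap had 0.16 and 0.29, and 0.91 and 0.74 by its other probe set. Il1r1 was 27.6-fold higher on stimulation in Th2-1st cells (log2 4.79, spread 1.07), against a dim unstimulated signal of 4.76, and its log2 ratio was 1.07 with dim signals raised to the median and 2.07 as the mean over its probe sets. It had 0.66 (spread 2.59) at dim signals in Th2-4th cells.

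The third question was how Th2-4th cells differed from Th2-1st cells with control siRNA. The decoy receptor gene Il1r2 was 9.16-fold higher in stimulated and 10.8-fold higher in unstimulated Th2-4th cells. Both IL-18 receptor genes were also higher in Th2-4th cells in each state, Il18r1 with 244 and 117 and Il18rap with 1795 and 725 in stimulated Th2-4th and Th2-1st cells. In unstimulated cells 5 of 7 members were higher and 0 were lower, where 19.5% of all genes were higher and 12.3% were lower. In stimulated cells 4 of 7 were higher and 1 was lower, where 17.2% of all genes were higher and 12.7% were lower. Centring moved all these log2 ratios by -0.25 in unstimulated and by -0.24 in stimulated cells.

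The log2 ratio of Il1r2 was 3.43 (spread 0.70) in unstimulated and 3.20 (spread 0.52) in stimulated cells, and it was past the square root of 10 as well as 2-fold in both. Il18rap had 1.44 (spread 0.67) and 1.31 (spread 0.55), and its other probe set had 0.84 and 1.01. Il18r1 had 1.26 (spread 0.79) and 1.06 (spread 0.68), and the stimulated value was 0.83 after centring and 0.93 after quantile normalization, both short of 2-fold. Il18 had 1.37 (spread 0.66) in unstimulated cells and 0.23 (spread 0.57) in stimulated cells.

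Il33 had 1.39 (spread 0.65) in stimulated cells. In unstimulated cells its ratio of 1.05 was smaller than its spread of 2.44, at dim signals, and was 0.81 after centring. Il1rap had -0.91 (spread 0.82) in unstimulated and 0.55 (spread 0.60) in stimulated cells, and its next brightest probe set had 0.10 and 1.07. Another, dim in unstimulated Th2-1st cells, had 1.92 and 1.09, so no direction held across the Il1rap probe sets in unstimulated cells. Il1r1 was lower in stimulated Th2-4th cells, with a log2 ratio of -3.17 (spread 0.84) that rests on the same bright Th2-1st control array as its knockdown ratio. Among the markers of other cells, the summed CD8 T and NK cell list read 1798 in stimulated Th2-4th and 846 in stimulated Th2-1st cells. The largest difference lay in Klrd1, with 832 and 86.2, and Eomes read 574 and 275. Cd8a differed less, with 217 and 162, and Cd8b1 went the other way, with 163 and 313, while Ncr1 was dim. Whether such cells had a part in the IL-18 receptor signals was not tested.

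**Figure D4:**
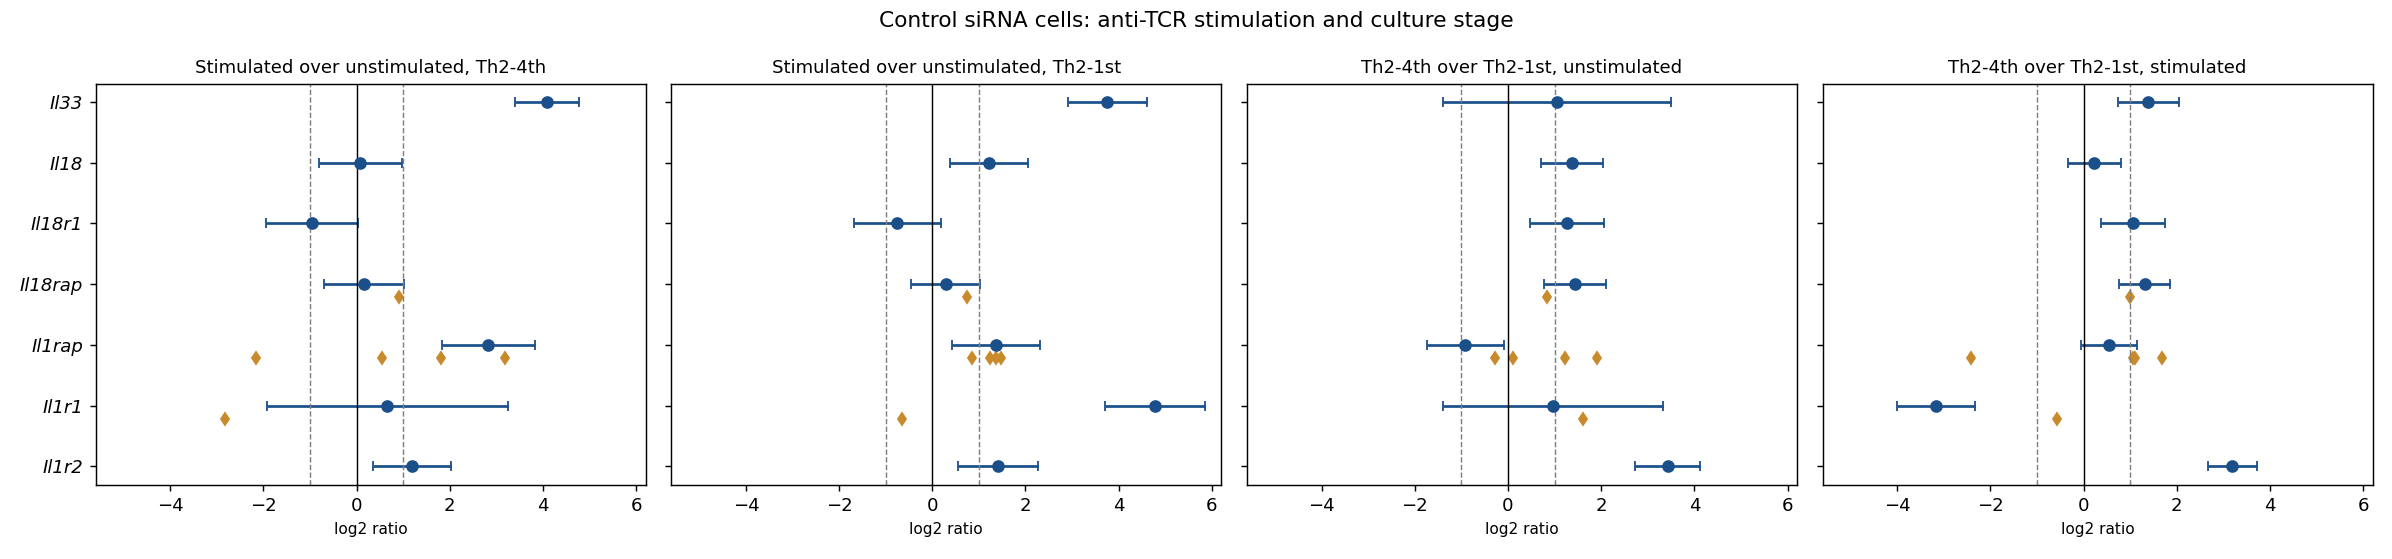
Log2 ratios in control siRNA cells (horizontal) for the 7 genes (vertical), from left to right stimulated over unstimulated in Th2-4th and in Th2-1st cells, and Th2-4th over Th2-1st in unstimulated and in stimulated cells. Blue points, spread bars, orange diamonds and dashed lines are as in the plot of knockdown ratios, and Il1r2 stands at 3.43 and 3.20 in both plots of Th2-4th over Th2-1st.

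The other genes of the pathway were counted by list. Of 9 other ligands and soluble inhibitors of the IL-1 family 5 were measured. Il1a, the IL-1 alpha cytokine, read 796 in Th2-4th cells with GATA3 siRNA after stimulation, 1245 with control siRNA after stimulation and 2.50 unstimulated. In Th2-1st cells it read 1957 with GATA3 siRNA after stimulation, 2047 with control siRNA after stimulation and 1.07 unstimulated. Il1a was thus read above the array median on the 4 stimulated arrays only, as Il33 was, but was within 2-fold between GATA3 siRNA and control siRNA in both cultures (log2 -0.65 in Th2-4th and -0.07 in Th2-1st). Il1b, the IL-1 beta cytokine, was lower with GATA3 siRNA in stimulated Th2-4th cells, with 41.0, a dim signal, against 115.6. In stimulated Th2-1st cells it read 78.9 with GATA3 siRNA and 76.2 with control siRNA. Il18bp, a soluble protein that binds IL-18, was higher in Th2-4th than in Th2-1st cells in both states (log2 1.07 unstimulated and 1.53 stimulated, the unstimulated value being 0.83 after centring), and 1.20 higher on the log2 scale on stimulation of Th2-4th cells. Il1rn, the IL-1 receptor antagonist gene, was dim on all 6 arrays.

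Of the 4 other receptor genes of the family all were measured. Sigirr, an inhibitory member, read 1434 in Th2-4th cells with GATA3 siRNA after stimulation, 1695 with control siRNA after stimulation and 1865 unstimulated, and from 2026 to 2144 in Th2-1st cells. It was within 2-fold in all 6 comparisons. Il1rl2 was lower in unstimulated Th2-4th cells than in Th2-1st cells (log2 -1.28), and Il1rapl1 and Il1rapl2, accessory-like receptors of neurons, were dim.

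Of 16 genes of MyD88 and IRAK signalling, 14 were measured. With GATA3 siRNA, 0 of 14 were past 2-fold in Th2-1st cells, and 1 was higher and 1 was lower in Th2-4th cells, both dim. Of all genes, 13.3% were higher and 7.49% lower in Th2-1st cells, and 10.6% higher and 10.6% lower in Th2-4th cells. Irak2, a kinase of the receptor complex, read 344 with GATA3 siRNA and 172 with control siRNA in stimulated Th2-4th cells, and 415 and 214 in stimulated Th2-1st cells, just short of 2-fold in both (log2 0.998 and 0.95), and past it in Th2-4th cells after centring (1.03). On stimulation, 2 of 14 were higher and 2 lower in Th2-4th cells, where 18.7% of all genes were higher and 21.6% lower. In Th2-1st cells 1 was higher and 0 were lower, where 17.5% of all genes were higher and 16.9% lower. Peli1, a ubiquitin ligase of this pathway, was higher in both cultures (log2 1.17 in Th2-4th and 1.63 in Th2-1st). Traf6, an adaptor with ubiquitin ligase activity, was higher in Th2-4th cells (1.20). Irak2 was lower on stimulation of Th2-4th cells, from 348 to 172 (-1.02, and -0.99 after centring), and the other lower gene was dim.

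Of 9 genes of inflammasomes and ligand processing, 7 were measured. None of the 7 was past 2-fold with GATA3 siRNA in either culture, against the shares of all genes just given. In Th2-4th against Th2-1st cells, 4 of 7 were higher in both states, where 19.5% of all genes were higher unstimulated and 17.2% stimulated. These were Casp1, the caspase that processes IL-18 and IL-1 beta (1.28 unstimulated and 1.34 stimulated), Casp4, a caspase that senses lipopolysaccharide (1.60 and 1.33), and the sensor genes Nlrp3 (1.52 and 2.00) and Aim2 (2.20 and 1.09). After centring, Aim2 in stimulated cells was short of 2-fold at 0.85. Casp1 read 5761 in stimulated Th2-4th and 2282 in stimulated Th2-1st cells. On stimulation Casp4 (2.67 in Th2-4th and 2.94 in Th2-1st) and Nlrp3 (1.91 and 1.44) were higher in both cultures, while Pycard, the inflammasome adaptor ASC, was lower (-1.51 and -1.44).

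Of 7 cytokine genes that IL-33 or IL-18 is known to raise in T cells, all were measured and all 7 were higher on stimulation in both cultures. On stimulation 18.7% of all genes were higher in Th2-4th and 17.5% in Th2-1st cells. With GATA3 siRNA, 2 of the 7 were lower in Th2-4th cells, where 10.6% of all genes were lower. In Th2-1st cells 3 were lower and 1 was higher, where 7.49% of all genes were lower and 13.3% higher. Il5, an eosinophil growth factor, read 10857 and 44722 with GATA3 and control siRNA in stimulated Th2-4th cells, and 909 and 26465 in Th2-1st cells. Il13, a cytokine of type 2 inflammation, had -0.96 in Th2-4th and -3.39 in Th2-1st cells, and Tnf, a proinflammatory cytokine, 0.55 and 1.86. Il9 had -4.03 and -1.14, at dim signals with GATA3 siRNA. Il4 (-0.26 and 0.13), Csf2 (-0.37 and -0.07) and Ifng (-0.24 and 0.47) were within 2-fold in both cultures. Il33 was higher with GATA3 siRNA in both cultures where Il5 and Il9 were lower, and each was higher on stimulation.

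For each measured member, the 3 genes with the most similar pattern over the 6 arrays were sought among 10569 genes above the array median on at least 3 arrays, by the root mean square difference of log2 signals centred on their own means. For Il33 these were Gm19531 (0.59), Gm30214 (0.65) and Rel (0.73), Rel being an NF-kB subunit. Rel read 4091 in Th2-4th cells with GATA3 siRNA after stimulation, 3714 with control siRNA after stimulation and 98.2 unstimulated, and in Th2-1st cells 2868 with GATA3 siRNA after stimulation, 1829 with control siRNA after stimulation and 80.9 unstimulated. For Il1rap they were Ece1 (0.22), Isy1 (0.26) and Tmem65 (0.28), all of them lowest on the unstimulated arrays. For Il1r2 they were Shtn1, Eda2r and Ttc39c (0.38, 0.38 and 0.39), and for Il18 Pou6f1, Jam2 and Antxr2 (0.09, 0.14 and 0.15). For Il18r1 they were Lce1i (0.33), Col16a1 (0.42) and Edaradd (0.43), for Il18rap 4933433N18Rik (0.15), Tfap2a (0.26) and Olfr78 (0.26), and for Il1r1 Akap2 (0.51), Cpeb1 (0.71) and Mmp10 (0.74). Likeness over 6 arrays describes these arrays and nothing more.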

How the data were processed

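The authors read the arrays with the GeneChip Command Console and deposited a linear intensity for 45101 probe sets per array, made with the Affymetrix Expression Console. No version and no summarisation method was found (not given in the sources used here). The deposited intensities had been scaled, since their mean after trimming 2% from each end was 500.0 on all arrays. No detection call or scanner file was used, and the single array of each condition limits the precision.

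In the platform annotation 34958 probe sets named 1 gene, 932 several and 9211 none. Symbols were updated through a RefSeq table, in which 34754 (99.4%) matched. The probe set of highest mean log2 signal stood for a gene. Ratios of array pairs were computed for 6 comparisons, with 2-fold as threshold and no filter on low signals. The spread was 1.4826 times the median absolute deviation among log2 ratios of the 500 genes of nearest signal. Counting was run on simulated data with changes planted past 2-fold, for the knockdown comparisons only, which gives no error rate for single arrays. Genes named in the text were the 8 members, Gata3, list genes past 2-fold with a higher signal above the array median, and the 3 genes most similar to each member. The knockdown ratios of Irak2, and Sigirr, Il1rn, cluster neighbours, dim list genes and single marker genes were named beyond that rule after their values were seen. The members and lists were chosen with earlier results of these data known. The alternatives were the mean over probe sets, the probe set of largest ratio, dropping probe sets marked as cross-hybridising, centring, quantile normalization, a filter on dim genes, a floor that raised dim signals to the array median, and the square root of 10 as threshold. Python 3.11.15, numpy 2.4.6, pandas 2.3.3 and matplotlib 3.10.9 were used.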

Additional observations from a re-analysis of the deposited data

Results flagged for a closer look

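Il1r2 had knockdown log2 ratios of opposite sign in the cultures, -0.43 in Th2-4th and 0.60 in Th2-1st cells, each beyond the spread among genes of like signal (0.19 and 0.21) and neither past 2-fold. With 1 array per condition the difference was not tested. The study's quantitative RT-PCR had Il1r2 lower with GATA3 siRNA in both cultures, so the Th2-1st direction differs between the methods.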

How the results depend on the processing

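All 24 member ratios past 2-fold kept their sign under the 6 alternatives run on ratios (the filter and the other threshold bear on counts only), as did 14 of the 18 others. The 4 that did not were Il1r1 on stimulation of Th2-4th cells (-2.83 to 0.69), Il1rap between unstimulated cultures (-1.16 to 1.92), and Il18 (-0.00 to 0.23) and Il1rap (-2.42 to 0.55) between stimulated cultures. The value of -2.42 is that of an Il1rap probe set dim on every array, while the brighter Il1rap probe sets had 0.55, 1.07 and 1.09. Part of the stability in sign was fixed in advance. No member probe set was marked as cross-hybridising, so dropping such probe sets could change no member ratio or count. For the 4 members with 1 probe set, the mean and the largest ratio could change no ratio. The Il1r1 knockdown ratio in Th2-4th cells stayed below 0 only at -0.01 with the mean and -0.04 with the floor. Of 96 counts of members under an alternative, 81 stayed within 1.5 times the reported count and 15 did not. With GATA3 siRNA in Th2-4th cells, the count of lower members was 0 with the mean over probe sets, the floor, the filter and the square root of 10, and the count of higher members was 2 with the probe set of largest ratio, Il1rap being added by a dim probe set. In Th2-1st cells the count of lower members was 0 with the mean over probe sets and the floor. On stimulation of Th2-4th cells the count of lower members was 1, Il1r1, with the mean and with the probe set of largest ratio. With the square root of 10, higher members numbered 2 on stimulation of Th2-1st cells, 1 between unstimulated and 1 between stimulated cultures. Between unstimulated cultures 1 member, Il1rap, was lower after centring. Between stimulated cultures 2 were lower with the probe set of largest ratio, Il1rap being added by a dim probe set, and 0 with the floor. No paired analysis was possible because each condition has 1 array.

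Dim signals limit Il1r1, unstimulated Il33 and the dim probe sets of Il1rap. The cause of the other changes was not tested.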
